A study of Oncorhynchus mykiss with 18 samples.

Results

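Broad H3K4me3 domains were taken as the H3K4me3 peaks of the rainbow trout (*Oncorhynchus mykiss*) TAC-3 that were at least 2500 bp wide. They were chosen by their measured width, and 1647 of the 50548 H3K4me3 peaks of this fish (3.26%) met the rule. TAC-3 carried *Prdm9* alleles 2/6, belonged to the strain INRA-AUT and had a testis at maturation stage III, when cells in meiotic prophase are present. H3K4me3 and H3K36me3 ChIP-seq were performed with 2 libraries each on testis tissue of TAC-3 and of TAC-1, not on sorted cells, (*Prdm9* 1/5, stage III). DMC1-SSDS, which maps the single-stranded DNA bound by the meiotic recombinase DMC1 at DNA double-strand breaks, was performed on TAC-3 and TAC-1, and also on RT-52, a fish with alleles 1/2 of *Prdm9* whose testis was at stage IV. TAC-3 thus shared allele 2 with RT-52 and no allele with TAC-1. Histone regions, and so the widths used here, come from 1 of 2 libraries, kept where the other overlapped by 25% reciprocally. Each genotype was represented by 1 fish, and each deposited list combined the 2 libraries of a fish and target, so no replicate error can be given. Differences are therefore read against counting error only, over peaks that may not be independent.

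H3K4me3 is the mark of active and poised promoters, and it is written there mainly by the SET1 and MLL (KMT2) enzymes. In mammals, unusually wide H3K4me3 domains cover promoters of cell identity genes and of strongly transcribed genes. A different source of the mark acts in meiosis: PRDM9 binds DNA through its zinc fingers and deposits both H3K4me3 and H3K36me3 on the flanking nucleosomes, where DMC1 is later loaded. H3K36me3 otherwise covers the bodies of transcribed genes. In mouse, PRDM9 sites are known to carry both marks, to lie mostly away from promoters and to change with the *Prdm9* allele.

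The 7 lists held 40535 TAC-3 H3K36me3 peaks, 153665 TAC-1 H3K4me3 peaks, 162044 TAC-1 H3K36me3 peaks, and 209, 616 and 1924 DMC1 hotspots of TAC-3, TAC-1 and RT-52. The read depth is not known from the lists, and both histone lists of TAC-1 were longer than those of TAC-3. H3K4me3 of TAC-3 was checked against markers of testis cells, as the count of genes with a boundary inside any H3K4me3 peak. This held for 14 of 24 meiotic genes, 11 of 26 germ line genes and 22 of 34 spermatid and cilium genes, and for 34.1% of all 40693 protein-coding genes. It held for 1 of 10 Sertoli, 1 of 10 Leydig, 2 of 8 erythroid and 1 of 8 leukocyte markers, and for 0 of 6 markers of smooth muscle and vessels.

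The broad domains had a median width of 2951 bp (quartiles 2682 and 3473 bp, maximum 15908 bp), and 775 of them were at least 3000 bp and 217 at least 4000 bp wide. They covered 5.42 Mb, which was 12.0% of all bases under H3K4me3 peaks. The median width of the 48901 narrower peaks was 727 bp. At the threshold, the narrowest domains were 2500, 2501 and 2502 bp wide (chr27:27543579-27546078, chr8:33434564-33437064 and chr7:13135327-13137828), with scores of 266.6, 717 and 207.5. The 3 widest peaks left out fell short of the threshold by 1 bp, with scores of 307.5, 102.75 and 336.3. The threshold thus cut a continuous range of widths.

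The deposited score is the mean of the MACS2 scores of the peaks that the authors had joined into a region when they lay within 1000 bp of each other. Its median was 352.5 in broad domains (range 67.8 to 4920) and 188 in narrower peaks. The score did not follow the width. It had a median of 118 below 500 bp, rose to 500.5 between 1500 and 1999 bp, and came down to 412.7 between 2500 and 2999 bp, 324.8 between 3000 and 3999 bp and 271 from 4000 bp on. A score that is not a whole number can only come from several joined peaks, and 1087 broad domains (66.0%) had such a score, against 16.5% of the narrower peaks. This share was 58.1% between 2500 and 2999 bp and 82.9% from 4000 bp on. Most of the broad domains were therefore chains of adjacent narrow peaks, at least 19 of them in 1 domain. Width and score come from the calls that define the domains and are given as a description.

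**Figure D1:**
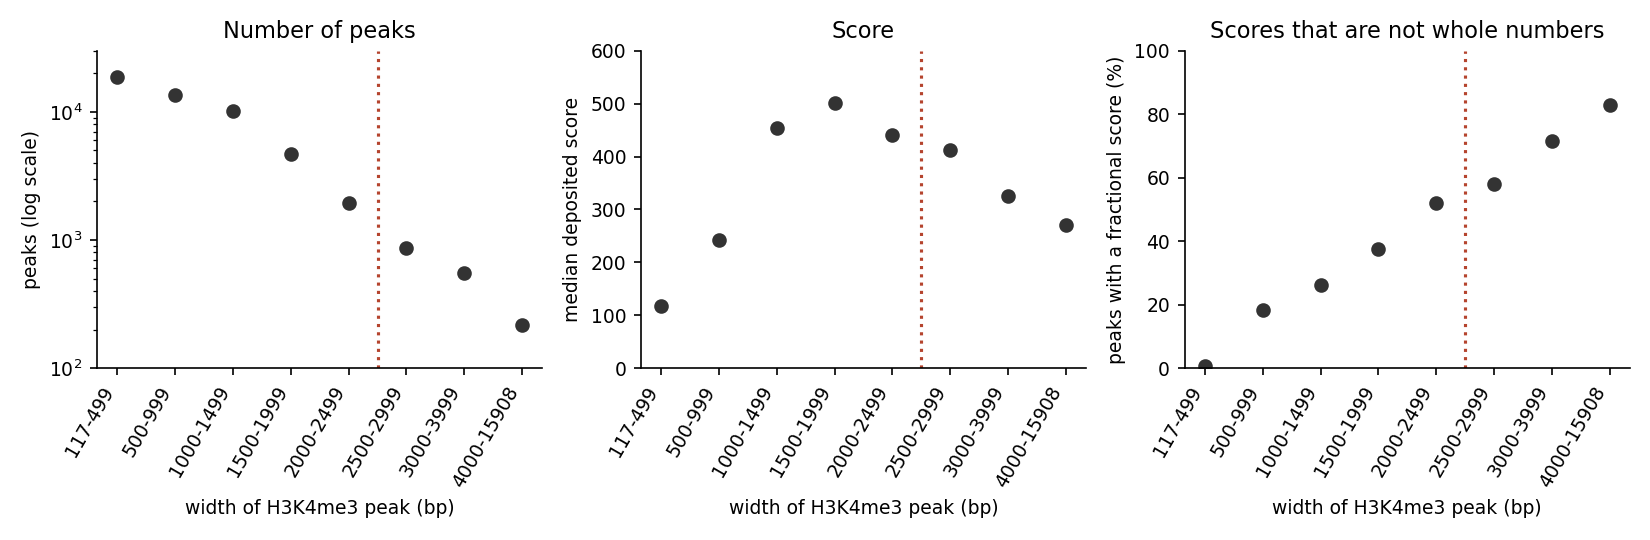
Number of peaks (log axis), median deposited score and share of scores that are not whole numbers, for TAC-3 H3K4me3 peaks in 8 classes of width. The dotted line marks 2500 bp. The median score was highest at 1500 to 1999 bp (500.5) and was 271 in the widest class, whereas the share of fractional scores rose to 82.9%.

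The 15 widest domains measured 8440 to 15908 bp, and 7 of them lay on unplaced scaffolds, for which no gene positions were used here. None of the 8 on chromosomes held the boundary of a protein-coding gene, and the single gene boundary was that of an rRNA gene (LOC118965398, chr7:90251821-90260404). The widest domain (chr11:2574263-2590170) had a score of 184.2, and its nearest gene was *plod2*, a lysyl hydroxylase of collagen, 51243 bp from its centre. The second (chr14:41900698-41915574, 14877 bp, score 208.1) lay 10246 bp from LOC118938768. The third (chr16:75392287-75406379, 14093 bp, score 357.4) was joined from at least 19 peaks. Some of the widest lay at the very start of a chromosome sequence: chr27:205-12903 (score 507.2) and chr28:97-8914 (score 852.3), each over 100 kb from the nearest gene. Another, chr18:72463973-72475951, lay 233209 bp from *csmd1a*.

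These widest domains were mostly marked in the other fish too. A TAC-1 H3K4me3 peak covered the centre of 14 of the 15 widest and the whole length of 8. TAC-1 H3K36me3 also covered 91.9% of the chromosome 27 domain, 87.8% of the chromosome 28 domain and 84.9% of the chromosome 18 domain, whereas TAC-3 H3K36me3 covered 0% of each. TAC-1 H3K36me3 covered less of the others of the 15 on chromosomes: 62.1% on chromosome 11, 49.5% on 3, 14.5% on 16, 7.12% on 7 and 1.21% on 14. On unplaced scaffolds, its cover ranged from 0% to 100%. The exception without any TAC-1 H3K4me3 was an 8505 bp domain on an unplaced scaffold, joined from at least 12 peaks.

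The 10 highest-scoring domains were of another kind. They measured 2516 to 3332 bp, scored 2638 to 4920, and 9 of the 10 held a gene boundary, 8 of them of a protein-coding gene. Of all 1568 broad domains on chromosomes, 951 (60.7%) held a gene boundary and 656 (41.8%) held none of a protein-coding gene. The highest (4920) was on an unplaced scaffold. The next was at *ppp2cb*, a catalytic subunit of protein phosphatase 2A (chr5:10952734-10955266, score 4107). The third lay between *hibadhb*, an enzyme of valine breakdown, and *tax1bp1b*, an autophagy receptor (chr2:7494183-7497011, score 3578). *kmt2a*, which encodes an H3K4 methyltransferase, had a domain of 2776 bp at its upper boundary (chr27:5583903-5586678, score 3315). *stag2b*, a subunit of cohesin, shared a domain with a lncRNA gene (chr14:31336717-31339609, score 3234). *usp24*, a deubiquitinase, shared one with *bloc1s2* (chr30:27022714-27025493, score 2947). None of the 10 had a TAC-3 H3K36me3 peak at its centre, and TAC-1 H3K4me3 covered the centre of 7.

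Of the 1647 domains, 1568 lay on the 32 chromosomes and 79 (4.80%) on 44 unplaced scaffolds, against 2.45% of the narrower peaks on scaffolds. The scaffold share was 3.67% between 2500 and 2999 bp and 13.4% from 4000 bp on. Within broad domains, the latter exceeded the share among those of 2500 to 3999 bp by 9.87 percentage points (95% Newcombe interval 5.82 to 15.1). Over the total length of all chromosomes, there were 0.702 broad domains per Mb. The density ranged from 0.490 per Mb on chromosome 15 (40 domains) to 0.982 on chromosome 4 (46) and 1.12 on chromosome 28 (49), and it was 0.818 on chromosome Y (39).

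The outer 10% at each end of the chromosomes held 280 of 1568 domains (17.9%, 95% Wilson interval 16.0 to 19.8) and 16.7% of the narrower peaks. This difference of 1.14 points was within counting error (-0.706 to 3.14). Against peaks of 1000 bp to just under 2500 bp (13.6%), it was 4.23 points (2.34 to 6.27), and none of the 7 alternatives kept both its direction and its call. The share differed by width. From 4000 bp on, 56 of 188 domains (29.8%) lay in the outer 10%, against 224 of 1380 (16.2%) between 2500 and 3999 bp, a difference of 13.6 points (7.14 to 20.7). Among all broad domains on chromosomes, the last 5% at each end held 11.5% and the next 5% held 6.38%, against 8.73% and 7.98% of the narrower peaks. These steps were not split by width. The length of each chromosome was taken up to the furthest end of any gene or listed peak, so a peak can itself set that end. Within 20 kb of an end taken in this way, there were 7 of 1568 broad domains (0.446%) and 44 of 47705 narrower peaks (0.0922%). These 7 domains lay on 6 chromosomes and had a median width of 5608 bp. Most domains stood alone: 1357 had no other within 50 kb, and 211 fell into 97 groups of at most 4. The 4 domains in 42.2 kb of chromosome 10 (chr10:2503328-2545484) and the 4 in 31.3 kb of chromosome 31 (chr31:359045-390304) held no gene boundary, whereas all 4 in 84.9 kb of chromosome 32 (chr32:14434437-14519317) did.

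**Figure D2:**
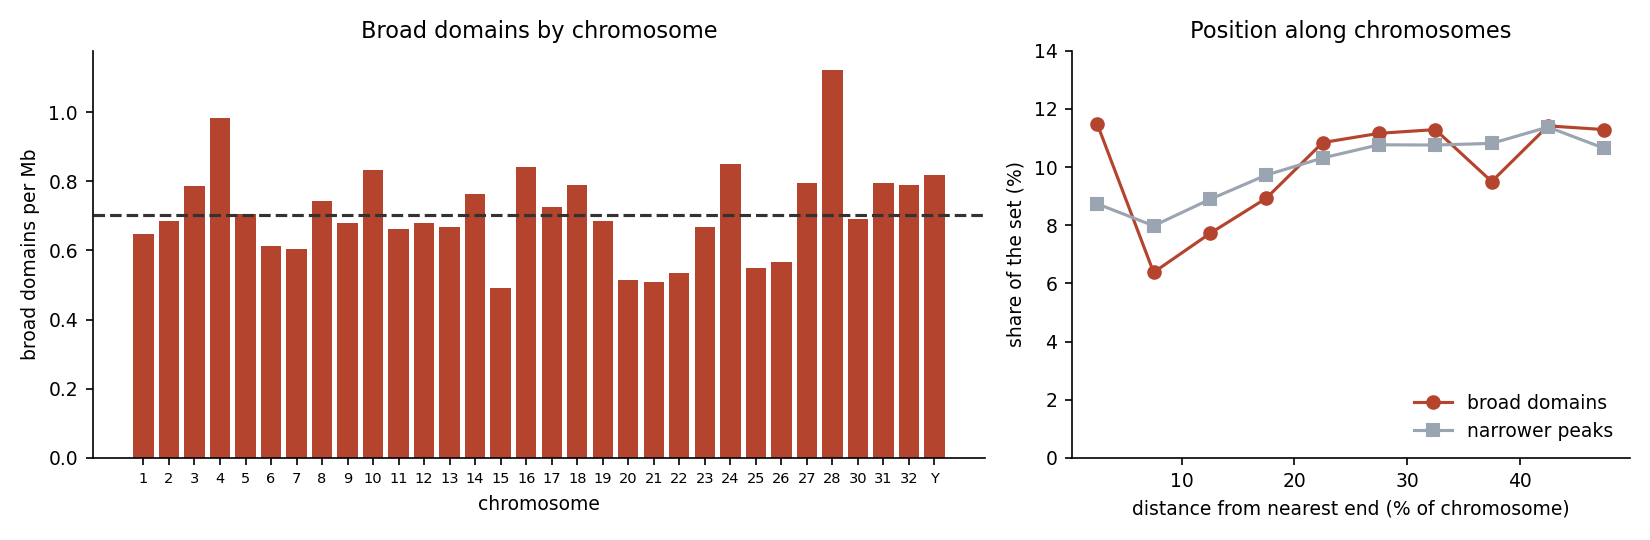
Left, broad domains per Mb on each chromosome, with the density over the total length of all chromosomes as a dashed line (0.702). Right, share of broad domains and of narrower peaks by distance from the nearest chromosome end, in steps of 5% of the chromosome length; the outermost step held 11.5% of the broad domains and 8.73% of the narrower peaks.

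The gene table used gives no strand, so transcription start and end sites could not be told apart and both boundaries of each gene were used. A boundary lay within 1 kb of the centre of 740 of 1568 broad domains (47.2%) and of 44.0% of the narrower peaks, a difference of 3.24 points (0.737 to 5.75). The surplus was over the many short peaks. Against peaks of 1000 bp to just under 2500 bp, of which 59.7% were at a boundary, broad domains were lower (difference -12.5 points, -15.1 to -9.90). The share fell from 51.8% between 2500 and 2999 bp to 45.9% between 3000 and 3999 bp and 30.3% from 4000 bp on. The last class differed from domains of 2500 to 3999 bp by -19.2 points (-25.8 to -11.8). Among peaks with a score of at least 192, the median of the whole list, broad domains were also less often at a boundary (-6.16 points, -9.13 to -3.24).

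Boundaries of several genes were more frequent at the centres of broad domains than at those of all narrower peaks, but not than at those of the next narrower class. Boundaries of at least 2 protein-coding genes lay within 1 kb of the centre of 232 domains (14.8%), against 5.41% of all narrower peaks and 9.13% of those of 1000 bp to just under 2500 bp. The difference from the latter was 5.67 points (3.94 to 7.56). By width, the share was 16.9% in peaks from 2000 bp to just under 2500 bp, 17.02% in domains between 2500 and 2999 bp and 2.66% in those from 4000 bp on. Over their full length, 307 domains held boundaries of 2 protein-coding genes, 6 of 3, 599 of 1 and 656 of none.

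In all, 1231 protein-coding genes had a boundary inside a broad domain, which is 3.03% of those on chromosomes, and 1346 genes of any kind, which is 2.49%. The gene lists were small next to these numbers, since only genes with a matching symbol could be used. Of the 24 meiotic and 26 germ line genes found by symbol, 0 had a broad domain, although 14 and 11 had a narrower peak. Of 34 spermatid and cilium genes, 4 had one (11.8%). These were *rsph1*, a radial spoke protein (chr3:77963533-77967620, 4088 bp, score 452.2), *spag6*, of the central apparatus of the axoneme (3617 bp), *dnai2b*, an outer arm dynein chain (2594 bp), and *ift88*, needed for intraflagellar transport (2533 bp, score 1378). The domains of *rsph1* and *ift88* also held a boundary of LOC110520630 and of *cryl1*, in this order. TAC-1 H3K4me3 covered 99.1% of the *spag6* domain and 100% of the *dnai2b* domain, but 27.8% of the *rsph1* domain.

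Among 12 housekeeping genes, 3 had a broad domain: the chaperone genes *hsp90ab1* (3612 bp, score 914.7) and *hspa8* (2506 bp, score 443), and *polr2a*, the largest subunit of RNA polymerase II (2740 bp, score 1325). Of 44 genes with symbols of ribosomal proteins, *rps16* (3382 bp), *rps18* (2536 bp) and *rpl7l1* (3293 bp) had one, although the last is known as a ribosome assembly factor. The domains of *polr2a*, *rps18* and *rpl7l1* also held a boundary of *zbtb4*, *vps52* and *ncoa1*, in this order. TAC-1 H3K4me3 was absent from the domains of *hspa8* and *rps18*. Of 18 genes of H3K4 and H3K36 methylation enzymes, *kmt2a* (above) and *kmt2e* (2621 bp, score 1986) had one. Of 10 genes on the Leydig list, only *hsd3b7* did (4492 bp, score 194.6), an enzyme known for bile acid synthesis. No Sertoli, erythroid, leukocyte or muscle and vessel marker did (0 of 10, 0 of 8, 0 of 8 and 0 of 6).

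Transcription factors of development had 7 of 148 genes with a broad domain (4.73%), and Hox genes 1 of 24. Their scores ranged from 147.3 to 654, and 3 of the 8 domains scored above the median of all broad domains (352.5). The *klf9* domain measured 6584 bp (chr6:19836269-19842852, score 255), that of *sox4b* 5162 bp (chr2:2447726-2452887, score 392), and that of *hoxc13a* 4356 bp (chr16:41441561-41445916, score 147.3). The domains of *zic4* (3911 bp), *irx1a* (3053 bp), *zfhx2* (2871 bp, score 654), *pou3f2a* (2575 bp, score 597) and *foxo3b* (2517 bp) were narrower. The *zfhx2* domain also held a boundary of *thtpa*. TAC-1 H3K4me3 covered 11.2% of the *hoxc13a* domain and 24.7% of the *sox4b* domain, against 94.4% of that of *pou3f2a*. With so few genes per list, these counts are a description beside the 3.03% of all protein-coding genes.

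**Figure D3:**
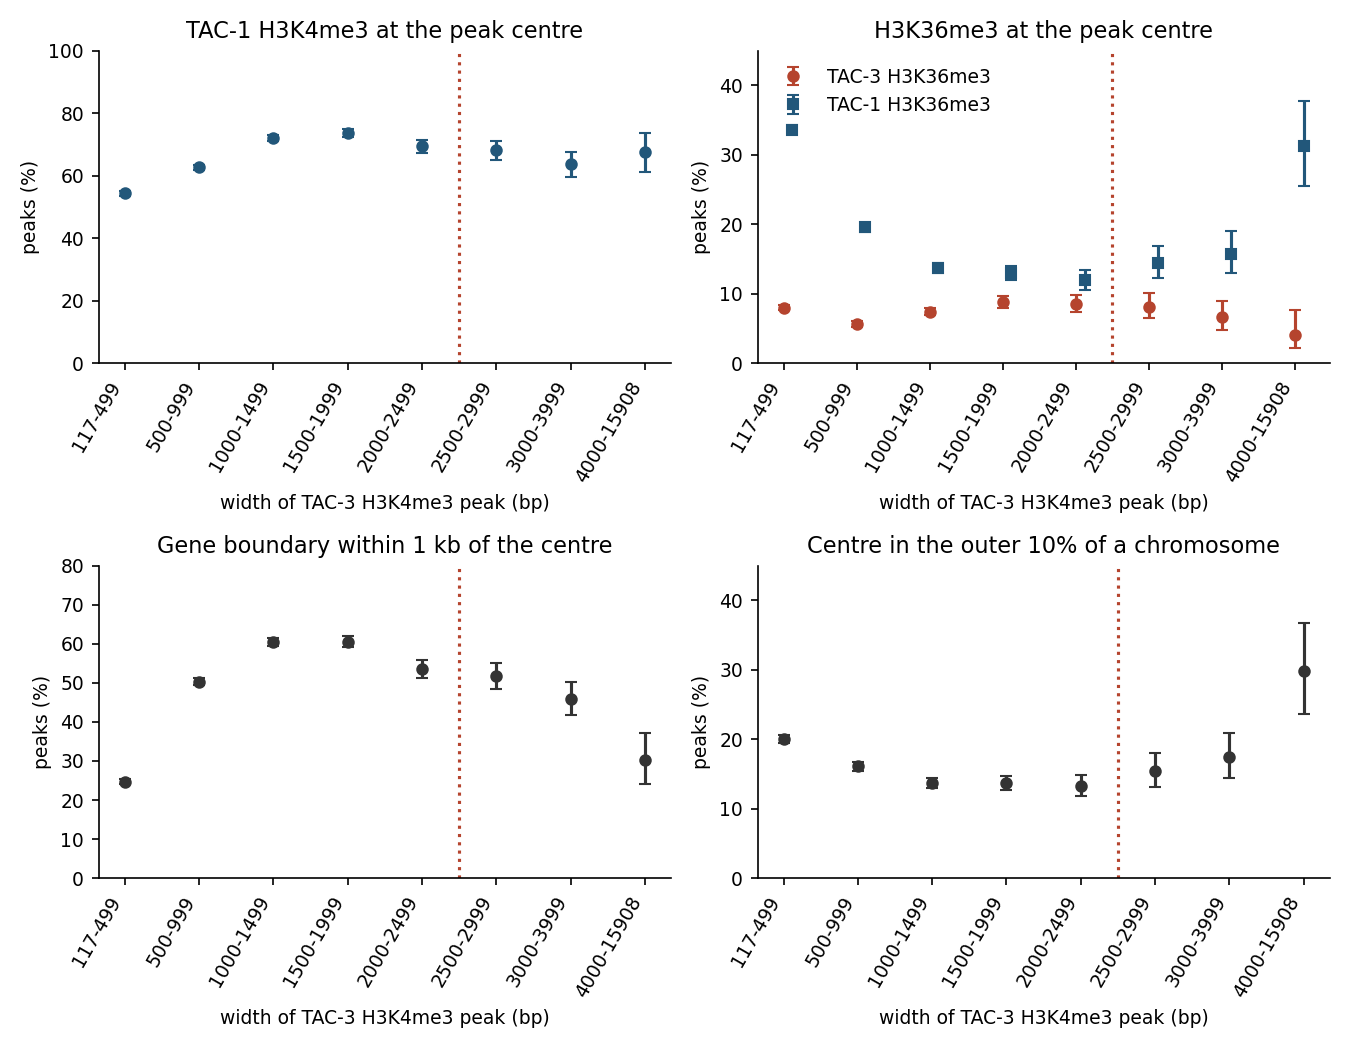
Share of TAC-3 H3K4me3 peaks in 8 classes of width with a TAC-1 H3K4me3 peak at their centre, with a TAC-3 or TAC-1 H3K36me3 peak at their centre, with a gene boundary within 1 kb of their centre, or with their centre in the outer 10% of a chromosome. Bars are 95% Wilson intervals over peaks, and the dotted line marks 2500 bp; the boundary share was 30.3% and the end share 29.8% in the widest class.

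The question here is how far broad domains of a *Prdm9* 2/6 testis were present in a 1/5 testis. To keep the width from setting the chance of overlap, the centre base of each domain was used. It lay in a TAC-1 H3K4me3 peak in 1096 of 1647 domains (66.5%, 64.2 to 68.8) and in 62.8% of the narrower peaks, a difference of 3.73 points (1.37 to 6.01). As with gene boundaries, the lowest share was in the shortest peaks, below 500 bp (54.4%). Against peaks of 1000 bp to just under 2500 bp (72.2%), broad domains were shared less often (-5.68 points, -8.09 to -3.34). The share stayed between 63.6% and 68.1% in the 3 classes of broad width.

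Over their full length, 1501 domains (91.1%) touched a TAC-1 H3K4me3 peak, 305 (18.5%) were entirely covered, and TAC-1 peaks covered 65.0% of their bases. In 223 domains (13.5%) at least 2 separate TAC-1 peaks overlapped the domain, up to 4 in the widest one on chromosome 11. The centre of 722 domains (43.8%) lay in a TAC-1 peak that was itself at least 2500 bp wide. Of the 5474 such TAC-1 peaks, 701 (12.8%) had their centre in a TAC-3 broad domain, and 33.2% had it in a TAC-3 peak of any width. The TAC-1 list was 3 times as long in this mark. With only as many of its highest-scoring peaks as the TAC-3 list holds, the difference at the centre from all narrower peaks was 10.7 points (8.30 to 13.2). The part of depth in these shares was not tested.

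The 146 domains (8.86%) without any TAC-1 H3K4me3 were less often centred near a gene boundary. A boundary lay within 1 kb of the centre of 32 of 137 on chromosomes (23.4%), against 708 of 1431 of the others (49.5%), a difference of -26.1 points (-32.9 to -17.9). In narrower peaks without TAC-3 H3K36me3 at the centre, this share was also lower without TAC-1 H3K4me3 (38.7%) than with it (49.5%). In narrower peaks with TAC-3 H3K36me3 at the centre, it was 7.57% and 6.25%. Of the 10 widest broad domains without TAC-1 H3K4me3, 8 lay on chromosomes and none of these held a gene boundary. The widest on a chromosome, chr13:59687294-59695270 (7977 bp, score 727), lay inside LOC110515614, 39922 bp from its boundary, and a TAC-3 H3K36me3 peak covered 100% of it. So did one over the 4180 bp domain inside *ddx27*, an RNA helicase gene (chr7:79293367-79297546, score 608.2), where TAC-1 H3K36me3 also covered 71.5%. Others had no H3K36me3 in either fish, such as the 4836 bp domain inside *slc9a7*, a sodium/proton exchanger gene (chr1:856382-861217, score 217), and the 4110 bp domain at chr16:7888622-7892731 (score 204.4), 84332 bp from the nearest gene.

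A TAC-3 H3K36me3 peak covered the centre of 117 of 1647 broad domains (7.104%, 5.96 to 8.45) and of 7.32% of the narrower peaks. The difference of -0.217 points was within counting error (-1.38 to 1.15), and it stayed so against peaks of 1000 bp to just under 2500 bp (-0.854, -2.07 to 0.547). Other ways of counting gave a higher share in broad domains beyond counting error: 2.49 points (1.2002 to 3.97) with 25% reciprocal overlap, and 1.62 points (0.524 to 2.91) at the centre with the highest-scoring 50% of the H3K36me3 list. The share was 8.14% between 2500 and 2999 bp and 4.15% from 4000 bp on. Anywhere in the domain, H3K36me3 was found in 226 (13.7%), a difference of 5.26 points (3.66 to 7.02) from narrower peaks, and the part of width in it was not tested. H3K36me3 of TAC-1 covered the centre of 282 domains (17.1%) and of 22.8% of the narrower peaks, a difference of -5.64 points (-7.42 to -3.71). Against peaks of 1000 bp to just under 2500 bp (13.3%), it was 3.81 points (1.99 to 5.77). The share was 33.6% in the shortest peaks, below 500 bp. It was 31.3% in domains from 4000 bp on and 14.97% in those of 2500 to 3999 bp, a difference of 16.4 points (10.3 to 23.1). For TAC-3 H3K36me3, the same difference was -3.40 points (-5.86 to 0.357).

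Of the 5 widest domains with TAC-3 H3K36me3 at the centre, 2 lay on unplaced scaffolds, and 1 was at chr8:2355472-2362658 (7187 bp, score 350.1), where the mark covered 43.6% in TAC-3 and 100% in TAC-1.

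Domains with and without H3K36me3 at the centre differed in other ways, and narrower peaks differed in the same direction in gene boundaries. In narrower peaks with TAC-1 H3K4me3, the boundary share was 6.25% with H3K36me3 and 49.5% without. In those without TAC-1 H3K4me3, it was 7.57% and 38.7%. The values for broad domains follow. A gene boundary lay within 1 kb of the centre of 14 of 108 domains with the mark (13.0%) and of 726 of 1460 without (49.7%), a difference of -36.8 points (-42.5 to -28.7). H3K36me3 was present at the centre of 62 of the 146 domains without TAC-1 H3K4me3 (42.5%) and of 55 of the 1501 others (3.66%), a difference of 38.8 points (31.0 to 47.0). Narrower peaks went in the same direction here too, with H3K36me3 in 2599 of 13758 without TAC-1 H3K4me3 and in 981 of the 35143 others. The 62 domains with TAC-3 H3K36me3 and no TAC-1 H3K4me3 had a median width of 2773 bp and a median score of 483.2. The median score was 179.4 in the 84 domains with neither, 349.3 in the 55 with both and 377.4 in the 1446 with TAC-1 H3K4me3 only.

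**Figure D4:**
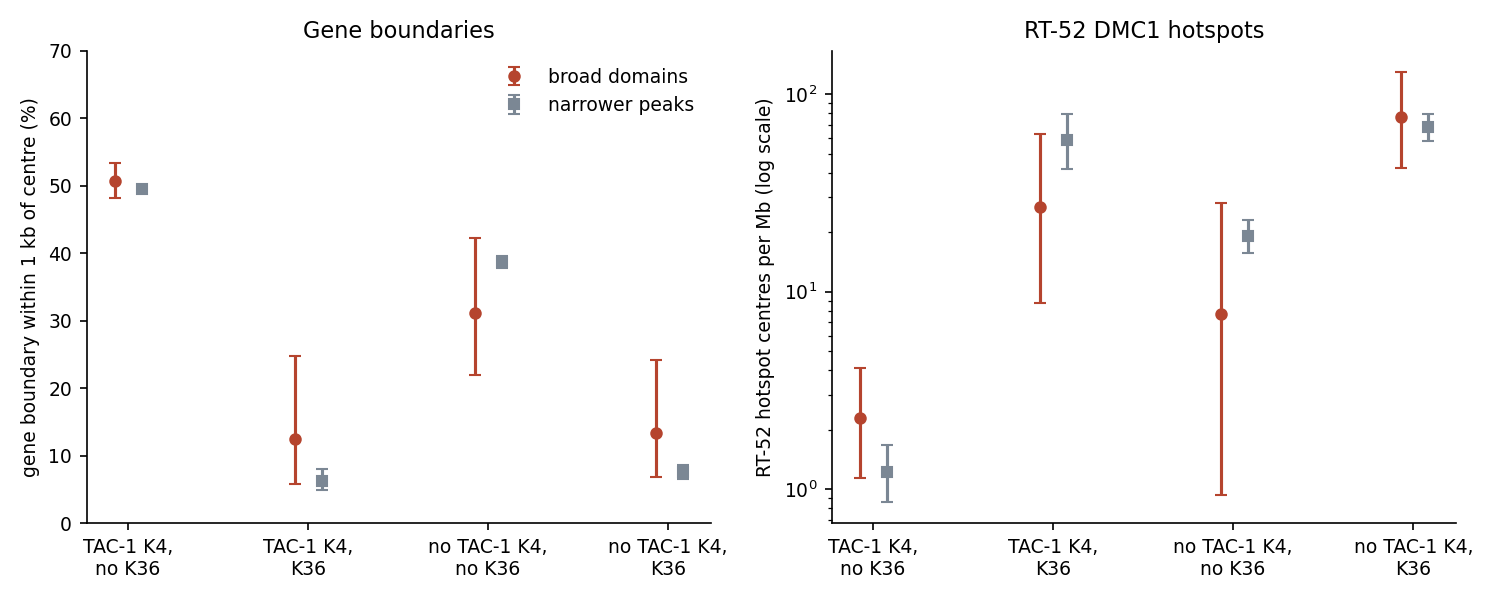
TAC-3 H3K4me3 peaks divided by a TAC-1 H3K4me3 peak at any base (TAC-1 K4) and a TAC-3 H3K36me3 peak at the centre (K36), for broad domains and narrower peaks. Left, share with a gene boundary within 1 kb of the centre (95% Wilson intervals); right, RT-52 hotspot centres per Mb on a log axis (exact Poisson intervals), which reached 77.0 in broad domains with H3K36me3 and no TAC-1 H3K4me3.

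The centres of 12 of the 209 TAC-3 hotspots (5.74%, 3.31 to 9.77) lay in broad domains, each in a different one, and 40 lay in narrower peaks. Per length, this was 2.22 centres per Mb of broad domain (exact Poisson interval 1.14 to 3.87) and 1.01 per Mb of narrower peak (0.718 to 1.37), a ratio of 2.203 (exact interval 1.05 to 4.28). The ratio rested on few hotspots. It was 2.11 (0.978 to 4.20) on chromosomes alone and 1.71 (0.802 to 3.41) against peaks of 1000 bp to just under 2500 bp. Domains of at least 3000 bp held 3 of the 12, with a ratio of 0.846 (0.169 to 2.62).

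Of the 1924 RT-52 hotspots, 32 (1.66%) were centred in broad domains and 343 in narrower peaks. This gave 5.91 per Mb (4.04 to 8.34) and 8.62 per Mb (7.73 to 9.59), a ratio of 0.685 (0.461 to 0.985). Per Mb, the ratio was thus above 1 with the hotspots of TAC-3 and below 1 with those of RT-52. Per region, broad domains were higher with both fish. An RT-52 centre lay in 32 of 1647 broad domains (1.94%) and in 343 of 48901 narrower peaks. For TAC-3, these were 12 (0.729%) and 40. A wider region can hold more centres. No TAC-1 hotspot of 616 was centred in a broad domain, with an exact Poisson interval that reached 0.681 per Mb (3 counts, the one-sided limit that a count of 0 allows, are 0.554 per Mb), and 9 were in narrower peaks (0.226 per Mb, 0.103 to 0.430), so a difference was not detectable at this number.

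**Figure D5:**
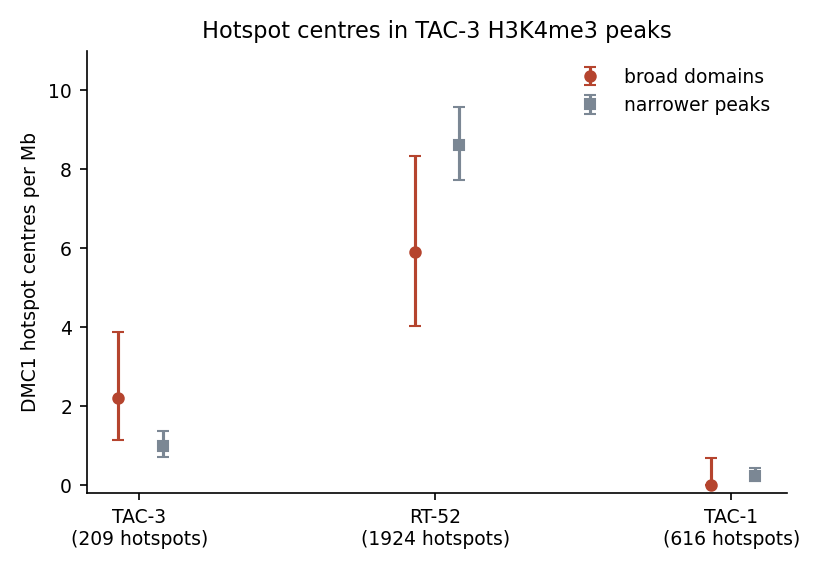
DMC1 hotspot centres per Mb of TAC-3 broad H3K4me3 domains and narrower peaks for the 3 fish, with exact 95% Poisson intervals. The TAC-3 rate was 2.22 in broad domains and 1.01 in narrower peaks, the RT-52 rates were 5.91 and 8.62, and the TAC-1 rates 0 and 0.226.

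Within broad domains, hotspots were more frequent where H3K36me3 covered the centre, and the same held within narrower peaks. Of narrower peaks with TAC-1 H3K4me3, 4.18% with H3K36me3 and 0.111% without held an RT-52 hotspot centre. Of those without TAC-1 H3K4me3, 5.93% and 0.986% did. An RT-52 hotspot was centred in 19 of the 117 broad domains with H3K36me3 at their centre (16.2%) and in 13 of the 1530 others (0.850%), a difference of 15.4 points (9.77 to 23.1). The same shares for TAC-3 hotspots were 6 of 117 (5.13%) and 6 of 1530 (0.392%), a difference of 4.74 points (1.94 to 10.3). In domains with H3K36me3 and no TAC-1 H3K4me3, there were 14 RT-52 centres, or 77.0 per Mb (42.1 to 129). Narrower peaks with the same marks had 67.9 per Mb (57.6 to 79.5), which gave a ratio of 1.13 (0.605 to 1.96). In domains with TAC-1 H3K4me3 and no H3K36me3, there were 2.30 per Mb (1.15 to 4.11) and in such narrower peaks 1.22 (0.865 to 1.68). This was a ratio of 1.88 (0.866 to 3.75). The ratio was below 1 with both marks (27.0 and 58.6 per Mb, 0.461, 0.142 to 1.16). It was also below 1 with neither (7.75 and 19.2 per Mb, 0.403, 0.0483 to 1.49). For TAC-3 hotspots, the ratios in the same order of classes were 2.27, 6.49, 2.52 and 4.03, on 2 to 4 centres in broad domains each. Only the interval of the ratio of 6.49 left out 1 (1.21 to 34.8). TAC-1 H3K4me3 was counted here at any base, which 91.1% of broad domains and 71.9% of narrower peaks had. The part of width in these classes was not tested.

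The 12 domains with a TAC-3 hotspot had a median width of 2734 bp. TAC-1 H3K4me3 was absent from 6 of them. TAC-3 H3K36me3 was present at any base in 10, against 226 of all 1647 broad domains. At the centre it was present in 6 of the 12, against 117 of all 1647. A gene boundary lay inside 6 of the 12, which include a domain on an unplaced scaffold, where no gene positions were used. This share does not set them apart from the other domains. Of all broad domains on chromosomes, 951 of 1568 held a gene boundary. The hotspot centres lay at a median of 447 bp from the domain centre. An RT-52 hotspot was also centred in 8 of the 12, which left 4 domains with a TAC-3 hotspot alone and 24 with an RT-52 hotspot alone, 36 in all.

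The widest domain with a TAC-3 hotspot lay at *chac1*, a gene of glutathione breakdown (chr4:39653008-39658552, 5545 bp). TAC-1 H3K4me3 covered 41.9% of it and TAC-3 H3K36me3 37.0%, and its hotspot lay 1451 bp from the centre. The strongest of the 12 in the TAC-3 list, ranked 17 of 209 by the deposited value, was at LOC110493299 (chr17:88014182-88017113), where the RT-52 hotspot ranked 50 of 1924. The domain at chr24:45241120-45243717, 58895 bp from LOC110503298, held the hotspot ranked 30 in TAC-3 and 7 in RT-52, and it had no TAC-1 H3K4me3. A gene-rich example was chr2:11258982-11261645, with boundaries of *prelid3a* and *elovl4a*, a fatty acid elongase gene, and a hotspot of both fish. At *gtpbp6* (chr5:97715270-97718005), the hotspot ranked 82 in TAC-3 and 77 in RT-52. A pair of domains inside LOC110528632 on chromosome 7 (chr7:84148155-84151483 and chr7:84325041-84327616) each held a TAC-3 hotspot, without TAC-1 H3K4me3.

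Among domains with an RT-52 hotspot, the widest was the rRNA gene domain of chromosome 7 named above (8584 bp). Several lay inside genes with H3K36me3 of TAC-3 over nearly all of their length: 98.9% at LOC110506673 (chr26:33274598-33279575), 99.9% in *hdac11*, a histone deacetylase gene (chr7:89933034-89936305), 100% in *cdk11b*, a cyclin-dependent kinase gene (chr16:51974109-51977270), and 97.9% in *pcbp4*, which encodes an RNA-binding protein (chr17:89615308-89618384). TAC-1 H3K4me3 covered 6.05% of the *hdac11* domain, 5.56% of that at LOC110506673 and 0% of those in *cdk11b* and *pcbp4*. Others were at gene boundaries, with less of this mark. At *cisd1*, which encodes an iron-sulfur protein of the mitochondrial outer membrane, the domain (chr20:42585152-42589046) had no H3K36me3, and its hotspot ranked 22 in RT-52. At *atrip*, the partner of the checkpoint kinase ATR (chr7:87053064-87057078), H3K36me3 covered 37.8%.

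By median rank, hotspots in broad domains stood higher in their lists than the others, with quartiles that overlapped. The median rank was 570 of 1924 for RT-52 hotspots in broad domains, 841 for those in narrower peaks and 996.5 for those outside H3K4me3 peaks. For TAC-3, the median ranks were 75.75, 108.75 and 106 of 209. These 209 include DMC1 peaks shared with TAC-1, which the paper calls possibly artifactual because they lacked the strand pattern of hotspots. Those shared peaks were centred outside TAC-3 H3K4me3 peaks, and ranks without them were not computed. The quartiles were 203 and 1169.5 for the 32 RT-52 hotspots in broad domains, and 373.5 and 1305 for the 343 in narrower peaks. For the 12 TAC-3 hotspots in broad domains they were 55.875 and 114, and for the 157 outside H3K4me3 peaks 45.5 and 163. Hotspots in broad domains were also longer, with median widths of 2089, 1870 and 1822 bp in RT-52. The ranks are a description, since hotspots of 1 list share their libraries.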

How the data were processed

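H3K4me3, H3K36me3 and DMC1-SSDS peak lists of rainbow trout testes were used as deposited. The authors aligned histone reads to USDA_OmykA_1.1 with BWA 0.7.17-r1188, called narrow peaks per library with MACS2 2.2.7.1 against input, joined peaks within 1000 bp and kept regions found in both libraries by 25% reciprocal overlap. The deposited score is the mean MACS2 score of joined peaks. The score of DMC1 lists is unnamed and served for ranks only. Coordinates and score come from 1 of the 2 libraries, which one is not stated. Sequences were matched to chromosomes through gene boundaries of the RefSeq table (38.5% or more of peaks near a boundary, against at most 14.2% for any other chromosome).

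Shares have 95% Wilson intervals, differences Newcombe intervals, and rates exact Poisson or conditional binomial intervals (Python 3.11.15, pandas 2.3.3, numpy 2.4.6, SciPy 1.17.1, matplotlib 3.10.9). All cover counting error only. A difference was called when its interval left out 0, or 1 for a ratio. Overlap calls equalled those of bedtools 2.31.1 on 6924 of 6924 simulated windows.

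Named domains were the 15 widest, the 10 highest-scoring, those with a hotspot centre (15 widest), the 10 widest without TAC-1 H3K4me3, the 5 widest with TAC-3 H3K36me3 at the centre, those at listed genes and those next to the threshold. The other domains with a TAC-3 hotspot were picked with their values in view. Gene symbols were matched exactly or with a teleost suffix. Members, lists and tests were chosen with earlier results of these data known. Alternatives changed the width, the comparison peaks, the score, the overlap rule, the boundary window and the chromosome ends. DNA sequence and read signal were not analysed here.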

Additional observations from a re-analysis of the deposited data

Results flagged for a closer look

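The density of hotspot centres in broad domains relative to narrower peaks went in opposite directions with the hotspots of the fish that share *Prdm9* allele 2. The ratio was 2.203 with the 209 hotspots of TAC-3 (12 centres in broad domains) and 0.685 with the 1924 hotspots of RT-52 (32 centres). The opposite directions depend on the width used: from 3000 bp on, the TAC-3 ratio was 0.846 (0.169 to 2.62) and the RT-52 ratio 0.576 (0.319 to 0.962), and from 4000 bp on they were 0.741 and 0.408, all below 1. On chromosomes alone, they were 2.11 (0.978 to 4.20) and 0.667 (0.440 to 0.977). They also depend on counting per Mb. Per region, the share with a centre was higher in broad domains with both fish. For RT-52 it was 32 of 1647 broad domains and 343 of 48901 narrower peaks, for TAC-3 12 and 40. The directions also differed by marks, with TAC-1 H3K4me3 at any base and TAC-3 H3K36me3 at the centre. With TAC-1 H3K4me3 only (4.79 Mb of broad domains), the TAC-3 ratio was 6.49 (1.21 to 34.8) and the RT-52 ratio 1.88 (0.866 to 3.75). With H3K36me3 only, they were 2.27 and 1.13. With both marks they were 2.52 and 0.461, and with neither 4.03 and 0.403. The TAC-3 ratios rest on 2 to 4 centres in broad domains per class. The difference between the ratios was not tested, and each rests on 1 fish. The RT-52 testis was at stage IV and that of TAC-3 at stage III, and 8 domains held a hotspot of both.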

How the results depend on the processing

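The peak lists give neither depth nor values per library, and each genotype is 1 fish, so counting error is the only error that could be measured. No paired analysis was possible because each list joins both libraries of a fish and target, and for the same reason no library could be left out. The number of domains was 3608, 775 and 217 at a width of at least 2000, 3000 and 4000 bp. In this order of widths, the difference in TAC-1 H3K4me3 at the centre lost its call at 3000 (1.86 points) and 4000 bp (4.82), that in TAC-3 H3K36me3 was 0.60 points at 2000 bp, the ratio of TAC-3 hotspots per Mb was 0.846 at 3000 and 0.741 at 4000 bp, the boundary difference -2.20 at 3000 and -13.8 at 4000 bp, and the difference in the outer 10% was -1.55, 3.91 and 13.1 points. Against peaks of 1000 bp to just under 2500 bp, the values were -5.68 for TAC-1 H3K4me3, 1.71 for the hotspot ratio, -12.5 for boundaries and 4.23 for chromosome ends. With scores of at least the list's median, they were -5.82 for TAC-1 H3K4me3, 0.98 for H3K36me3, -6.16 for boundaries and -0.635 for chromosome ends. For H3K36me3, the difference was 0.056 points over the central 400 bp, 5.26 over the full length, 2.49 with 25% reciprocal overlap and 1.62 with the highest-scoring 50% of the list, the last 3 of which gained a call. The chromosome end difference was 2.74 points for the outer 5% and -0.827 for the outer 20%. On chromosomes alone, an alternative chosen after seeing the data, the hotspot ratio was 2.11 and lost its call. For RT-52 hotspots, whose alternatives were also added after seeing the data, the ratio stayed below 1 and lost its call at 2000 bp (0.938), at 4000 bp (0.408) and with scores of at least the median (0.784). The cause of these changes was not tested. The other alternatives kept the direction and the call: 2 of 5 for the number of domains (within 1.5 times), 7 of 11 for TAC-1 H3K4me3, 4 of 10 for H3K36me3, 4 of 8 for TAC-3 hotspots, 3 of 6 for RT-52 hotspots, 4 of 8 for boundaries, and 0 of 7 for chromosome ends.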

Other observations

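By kind of gene, a boundary inside a broad domain was found for 71 of 3897 lncRNA genes (1.82%, Wilson interval 1.45 to 2.29), 20 of 1806 pseudogenes (1.11%), 6 of 654 snoRNA genes (0.917%), 3 of 592 rRNA genes (0.507%) and 11 of 5441 tRNA genes (0.202%), against 3.03% of protein-coding genes. For rRNA genes, broad domains were as frequent as narrower peaks (3 and 2 genes), whereas for tRNA genes 96 had a boundary in a narrower peak. Reads that map to several places were removed by the authors, and the part of this step in the counts at repeated genes was not tested.

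The centres of broad domains lay inside a gene less often than those of narrower peaks (58.9% of 1568 against 67.3% of 47705, a difference of -8.42 points, -10.9 to -5.97). Of the broad domains on chromosomes, 365 (23.3%) were centred over 10 kb from any gene boundary and 110 over 50 kb. By chromosome, the boundary share was higher in broad domains than in narrower peaks on 21 of 32 chromosomes, the TAC-1 H3K4me3 share on 22 and the H3K36me3 share on 16.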
